A study of Homo sapiens with 6 samples.

Results

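The integrated stress response regulators described here are 10 genes, chosen by name: the transcription factors ATF4, ATF5, ATF3 and DDIT3 (CHOP), the Tribbles pseudokinases TRIB1, TRIB2 and TRIB3, the phosphatase subunits PPP1R15A (GADD34) and PPP1R15B (CReP), and the chromatin cofactor NUPR1. They and the gene lists used further on were chosen with earlier results of these data known. All 10 have a row among the 26410 rows of the count table. All 10 were among the 13014 genes with enough counts to test. They were measured by RNA-seq in Kasumi-1, an established human acute myeloid leukaemia line with the RUNX1::RUNX1T1 fusion. Lentivirus carried either a scrambled control hairpin (control, 3 libraries) or a hairpin against PHF19, a subunit of Polycomb repressive complex 2 (shPHF19, 3 libraries). Both groups went through puromycin selection at 2 µg per ml, begun 48 h after delivery and kept up for at least 24 h. The control samples carry the treatment label WT, while the treatment protocol names the scrambled hairpin. The sources used here do not say how many hairpin sequences were used or whether replicates were separate cultures. The p-values may therefore reflect only technical spread among the libraries.

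In the integrated stress response, any of the kinases HRI, PKR, PERK or GCN2 phosphorylates the translation factor eIF2. General protein synthesis then drops, while translation of the ATF4 and ATF5 messages rises through short upstream reading frames. ATF4 pairs with C/EBP proteins to drive amino acid and stress genes, among them DDIT3, ATF3, TRIB3 and PPP1R15A. PPP1R15A, which is induced, and PPP1R15B, which is made constantly, each bring protein phosphatase 1 (PP1) to eIF2 and so end the response. TRIB1 and TRIB2 are known in myeloid leukaemia for sending C/EBP-alpha to degradation through the ubiquitin ligase COP1.

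Promoter sequences are shown because 7 of these genes fell at least 2-fold, as described further on. Of the 8 members that could be searched, 3 carry a stress-related motif close to a start site, and of these PPP1R15B is not among the 7. RefSeq windows of GRCh38.p14 were found for 8 members, 15 windows in all, counting each annotated start. TRIB1 and NUPR1 had none. The 250 bases before each start were searched on both strands for the core of the C/EBP-ATF response element (TGATGNAA), the cyclic AMP response element (TGACGTCA) and the endoplasmic reticulum stress element (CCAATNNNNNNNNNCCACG). Of the 15 windows, 2 held the first motif and 1 the second, while none held the third. Over all 35116 windows the shares with these motifs were 3.14%, 1.65% and 0.074%. The 3 matches lie in different promoters and do not overlap. Each is printed in the gene's own direction with the motif in capitals.
PPP1R15A (chr19:48872343-48872390, plus strand, motif 58 to 51 bases before the start): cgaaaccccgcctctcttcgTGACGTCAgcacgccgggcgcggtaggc
PPP1R15B (chr1:204412017-204412064, minus strand, motif 227 to 220 bases before the start): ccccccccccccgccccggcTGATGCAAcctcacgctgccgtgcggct
ATF3 (chr1:212565196-212565243, plus strand, motif 191 to 184 bases before 1 of its 2 listed starts): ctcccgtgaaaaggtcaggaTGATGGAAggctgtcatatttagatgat
PPP1R15A, with the cyclic AMP element, fell 5.26-fold, and the genes with a C/EBP-ATF core fell 3.17-fold (ATF3) and 1.18-fold (PPP1R15B). Searched members without a match in these 250 bases were TRIB3 (6.47-fold lower), DDIT3 (6.39-fold), TRIB2 (4.20-fold), ATF5 (2.71-fold) and ATF4 (1.26-fold). Sequence further away was not searched, and a link between the motifs and the falls was not tested. A match describes letters only and does not show that a factor binds there.

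PHF19 was lower in every shPHF19 library, at 167, 199 and 189 CPM in control replicates 1 to 3 and 41.1, 36.9 and 33.0 CPM in shPHF19 replicates 1 to 3 (CPM, counts per 1000000 counts of the library, scaled by the TMM method). The libraries held 14229878 to 16615143 counts, and the most that a gene with no count could still hold, 3 counts, equals 0.177 to 0.223 CPM (counting error only). Of the 7 line markers looked at, 6 stood above 1 CPM in both groups, KIT at 2936 and 3289 CPM and MPO at 4273 and 8388 CPM (control and shPHF19 means), whereas CD38 was at 0.118 and 0.274 CPM. The summed erythroid markers reached at most 1.17 CPM, the fibroblast markers 2.07 to 3.75 CPM and the B cell markers 9.89 to 13.7 CPM. Summed T cell markers ran from 34.3 to 39.6 CPM in control and 48.4 to 52.4 CPM in shPHF19 libraries, most of it CD3D. Summed epithelial markers ran from 53.8 to 69.5 CPM and from 81.8 to 97.3 CPM, most of it EPCAM. Their part in the results was not tested.

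Of the 10 regulators 9 were lower in shPHF19 cells (edgeR quasi-likelihood test, adjusted p under 0.05), none was higher and 1, TRIB1, did not pass. No member was higher at an unadjusted p under 0.05 in edgeR either, nor called higher by DESeq2 or limma-voom. Most of the transcriptome differed: 60.2% of all 13014 genes passed, 30.9% lower and 29.4% higher. Falls of at least 2-fold were called for 7 members and for 10.9% of all genes. Every shPHF19 value lay below every control value for 9 members, and for 32.6% of all genes. The median log2 fold change was -1.87 over the 10 members and -0.03 over all genes tested. Because the members were chosen with earlier results of these data known, these contrasts with all genes only describe them. Scaled by library totals alone the median of all genes was -0.24, and with upper-quartile factors -0.14. Library totals alone also turned the called genes from 4015 lower and 3820 higher (48.8% higher) to 5624 lower and 2590 higher (31.5% higher). In bulk RNA, fewer cells expressing a gene and less of its RNA per cell cannot be told apart.

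**Figure D1:**
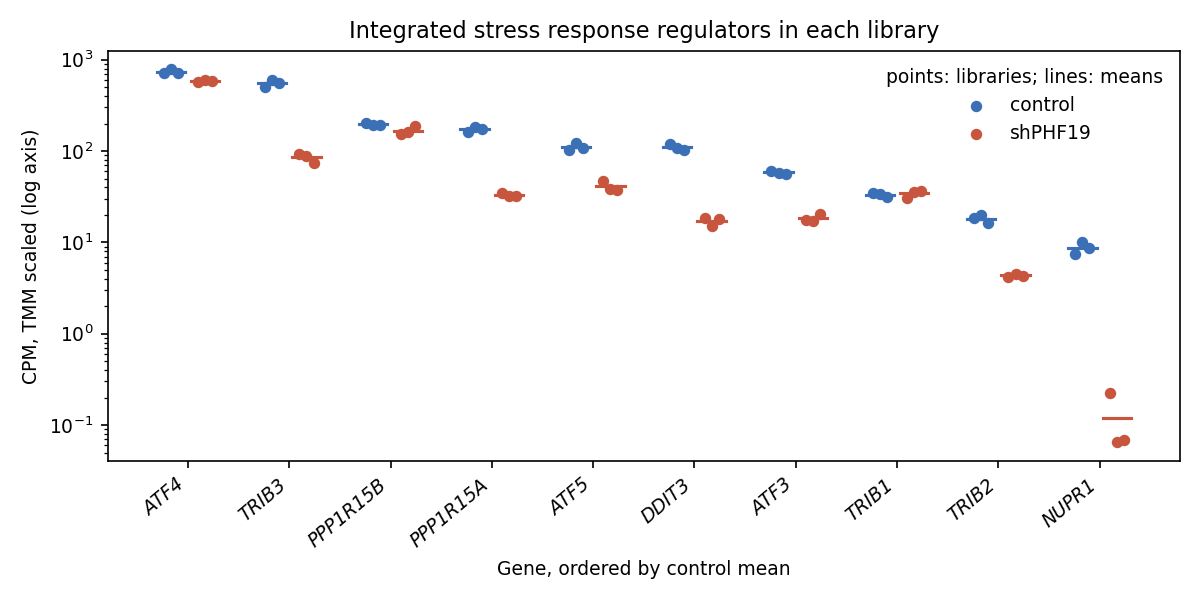
CPM of the 10 regulators (log axis) in each of the 3 control (blue) and 3 shPHF19 (red) libraries, with lines at the group means. TRIB1 is the gene whose groups overlap, and NUPR1 stands at 0.223 CPM or less in each shPHF19 library.

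The RNA of ATF4, the central transcription factor of the response, was the most abundant among the members and changed little. RNA counts do not measure ATF4 protein or the phosphorylation of eIF2. ATF4 (chromosome 22, 39519695 to 39522685, plus strand; GRCh38, GENCODE 29) stood at 710.4, 783 and 707 CPM in the control and 566, 603 and 582 CPM in the shPHF19 libraries. The groups did not overlap, and the means were 733 ± 43.2 and 584 ± 18.3 CPM (SD, n = 3), 1.26-fold lower. Its log2 fold change was -0.33 (SE 0.0793; edgeR adjusted p = 0.000368), and 32.6% of all genes tested fell further. GENCODE 29 names 4 pseudogenes after ATF4, none with a row of its own, so its counts depend on how shared reads were treated.

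ATF5, a relative of ATF4 that is also held back by upstream reading frames, was lower in all shPHF19 libraries. ATF5 (chromosome 19, 49928702 to 49933935, plus strand) was at 103, 123 and 107 CPM in control and 46.7, 38.7 and 37.5 CPM in shPHF19 libraries. The lowest control value was more than 2-fold above the highest shPHF19 value. The means of 111 ± 10.4 and 41.0 ± 5.04 CPM (SD, n = 3) differ 2.71-fold, with a log2 fold change of -1.44 (SE 0.101; edgeR adjusted p = 4.63e-17). Exons of ATF5 overlap those of NUP62 on the other strand, and NUP62 itself rose (103 ± 4.62 to 180.2 ± 8.44 CPM; SD, n = 3). The sources used here do not state whether counting took strand into account.

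ATF3, a stress-induced factor that acts downstream of ATF4, fell in all 3 shPHF19 libraries. ATF3 (chromosome 1, 212565334 to 212620777, plus strand) was at 60.7, 57.5 and 56.6 CPM in control and 17.4, 17.2 and 20.6 CPM in shPHF19 libraries. Both groups were tight and far apart. Its log2 fold change was -1.66 (SE 0.115; edgeR adjusted p = 2.70e-17), or 3.17-fold lower.

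DDIT3 encodes CHOP, the factor that links a lasting stress response to cell death. DDIT3 (chromosome 12, 57516588 to 57521737, minus strand) was at 119, 107 and 103 CPM in control and 18.5, 15.2 and 17.8 CPM in shPHF19 libraries, a 6.39-fold lower mean. This was one of the strongest falls among the 10, with a log2 fold change of -2.68 (SE 0.109; edgeR adjusted p = 1.02e-25), and 1.33% of all genes tested fell further. Exons of DDIT3 overlap those of MARS and MBD6 on the other strand. MARS was at 356 ± 21.3 and 307 ± 24.3 CPM and MBD6 at 66.2 ± 2.38 and 69.7 ± 3.56 CPM (control and shPHF19; SD, n = 3).

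NUPR1, a small stress-induced chromatin protein that ATF4 can switch on, was nearly lost. NUPR1 (chromosome 16, 28532708 to 28539174, minus strand) held 122, 171 and 135 counts in the control libraries and 3, 1 and 1 counts in the shPHF19 libraries. In CPM these were 7.49, 10.1 and 8.74 against 0.223, 0.0647 and 0.0688, so that shPHF19 libraries were at or below the limit of detection. Scaled for library size, the 428 control counts and 5 shPHF19 counts gave a ratio of 76.4, with an exact (Clopper-Pearson) 95% interval of 32.5 to 236 that covers counting error only. The fitted log2 fold change was -6.15 (SE 0.406; edgeR adjusted p = 6.40e-18), a value that depends on the small count added in the fit. Without shPHF19 replicate 1, the library with 3 of the 5 counts, it was -6.87. Only 0.0845% of all genes tested had a lower value.

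**Figure D2:**
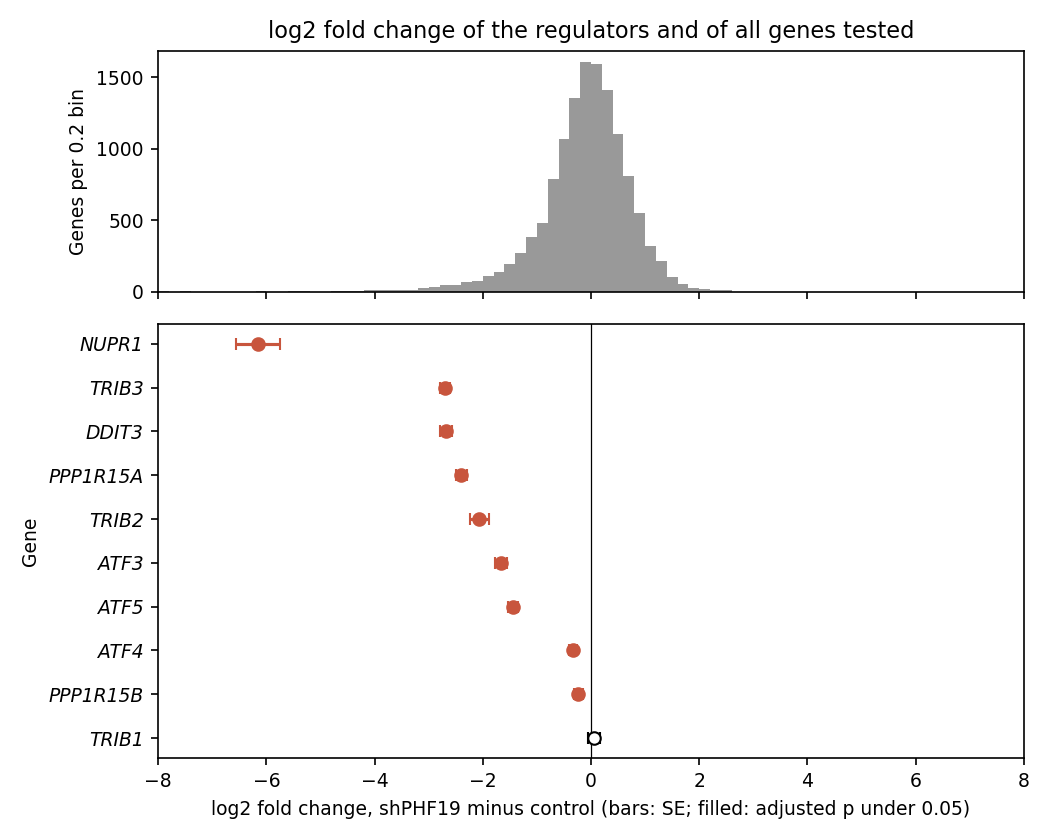
Lower panel: log2 fold change (shPHF19 minus control) of the 10 regulators, with bars for the SE and filled points for an adjusted p under 0.05. Upper panel: the number of all 13014 tested genes in each 0.2-wide bin of the same axis, whose median is -0.03, while 7 of the regulators lie below -1.

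Of the 3 Tribbles paralogs, TRIB3 and TRIB2 fell and TRIB1 did not pass. TRIB3, a target of ATF4 and CHOP that binds ATF4 in turn, was the most abundant of them. TRIB3 (chromosome 20, 362835 to 397559, plus strand) was at 506, 602 and 553 CPM in control and 93.0, 89.2 and 74.7 CPM in shPHF19 libraries. Every control library was more than 5-fold above every shPHF19 library. The means, 554 ± 47.9 and 85.6 ± 9.62 CPM (SD, n = 3), differ 6.47-fold, with a log2 fold change of -2.69 (SE 0.0927; edgeR adjusted p = 2.33e-28).

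TRIB2, a paralog with a known role in leukaemia, fell as well but from a low level. TRIB2 (chromosome 2, 12716889 to 12742734, plus strand) was at 18.5, 20.1 and 16.1 CPM in control and 4.15, 4.53 and 4.33 CPM in shPHF19 libraries. These values rest on 249 to 342 counts per control and 56 to 70 counts per shPHF19 library. Its mean was 4.20-fold lower (log2 fold change -2.07, SE 0.175; edgeR adjusted p = 2.72e-14).

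TRIB1, the remaining leukaemia-linked paralog, was the single member whose groups overlapped. TRIB1 (chromosome 8, 125430321 to 125438405, plus strand) was at 34.3, 33.7 and 31.1 CPM in control and 30.6, 35.5 and 36.9 CPM in shPHF19 libraries. The lowest shPHF19 value was below all control values and the other two were above them. Its log2 fold change of 0.06 (SE 0.114; edgeR adjusted p = 0.694) turned to -0.0466 with upper-quartile factors and to -0.149 with library totals alone, and did not pass under any alternative tried.

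Both phosphatase subunits were called lower, the inducible one by far more in size. PPP1R15A (GADD34; chromosome 19, 48872392 to 48876057, plus strand) was at 163, 182 and 176 CPM in control and 34.8, 32.6 and 31.8 CPM in shPHF19 libraries. The means of 174 ± 10.1 and 33.1 ± 1.56 CPM (SD, n = 3) differ 5.26-fold, with a log2 fold change of -2.40 (SE 0.0945; edgeR adjusted p = 3.34e-26). The groups were far apart, and 1.87% of all genes tested fell further.

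PPP1R15B, the constitutive subunit, was about as abundant in control cells as PPP1R15A by counts and moved little. PPP1R15B (chromosome 1, 204403387 to 204411791, minus strand) was at 203, 192 and 195 CPM in control and 154, 159.6 and 187 CPM in shPHF19 libraries. The third shPHF19 library came close to the lowest control value. Its mean was 1.18-fold lower (log2 fold change -0.24, SE 0.0852; edgeR adjusted p = 0.0154). The call was lost without shPHF19 replicate 1 (-0.18, edgeR adjusted p = 0.0763), without shPHF19 replicate 2 (-0.20, edgeR adjusted p = 0.118) and in the replicate block fit (-0.24, edgeR adjusted p = 0.0526). Over all alternatives the adjusted p ran from 3.92e-05 to 0.118.

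The ratio of 2 genes within a library does not depend on how libraries are scaled, so 8 pairs of members, paralogs and others, were compared that way (0.5 added to each count). In all 8 pairs the values of the groups did not overlap, and each pair reached p = 0.1 (adjusted p = 0.1 over the 8 pairs; exact permutation test, 2-sided), the smallest p that 3 against 3 libraries can give. How often ratios of other gene pairs separate the groups was not computed, and 60.2% of all genes passed the edgeR test. The ratios therefore only describe these pairs. The log2 ratio of TRIB3 to TRIB1 was 3.88, 4.16 and 4.15 in control and 1.60, 1.33 and 1.02 in shPHF19 libraries, a 6.72-fold drop of the ratio (difference -2.75, SE 0.193). The log2 ratio of TRIB1 to TRIB2 rose by 2.11 (SE 0.0863), from 0.86 ± 0.105 to 2.97 ± 0.107 (SD, n = 3). The ratio of TRIB1 to TRIB2 was thus 4.32-fold higher in shPHF19 cells. TRIB3 and TRIB2 fell by more similar amounts, and their log2 ratio differed by -0.64 (SE 0.144).

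For the phosphatase subunits, the log2 ratio of PPP1R15A to PPP1R15B was -0.32, -0.07 and -0.14 in control and -2.15, -2.29 and -2.55 in shPHF19 libraries. The inducible subunit went from near parity in counts to a 4.45-fold smaller share relative to the constitutive one (difference -2.15, SE 0.140). Against ATF4, the log2 ratio of DDIT3 differed by -2.35 (SE 0.144) and that of ATF3 by -1.34. The log2 ratio of ATF4 to ATF5 differed by 1.11 (SE 0.124). DDIT3 and PPP1R15A kept the closest ratio of the 8 pairs, with log2 values of -0.45, -0.77 and -0.77 in control and -0.91, -1.10 and -0.83 in shPHF19 libraries (difference -0.28, SE 0.134).

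**Figure D3:**
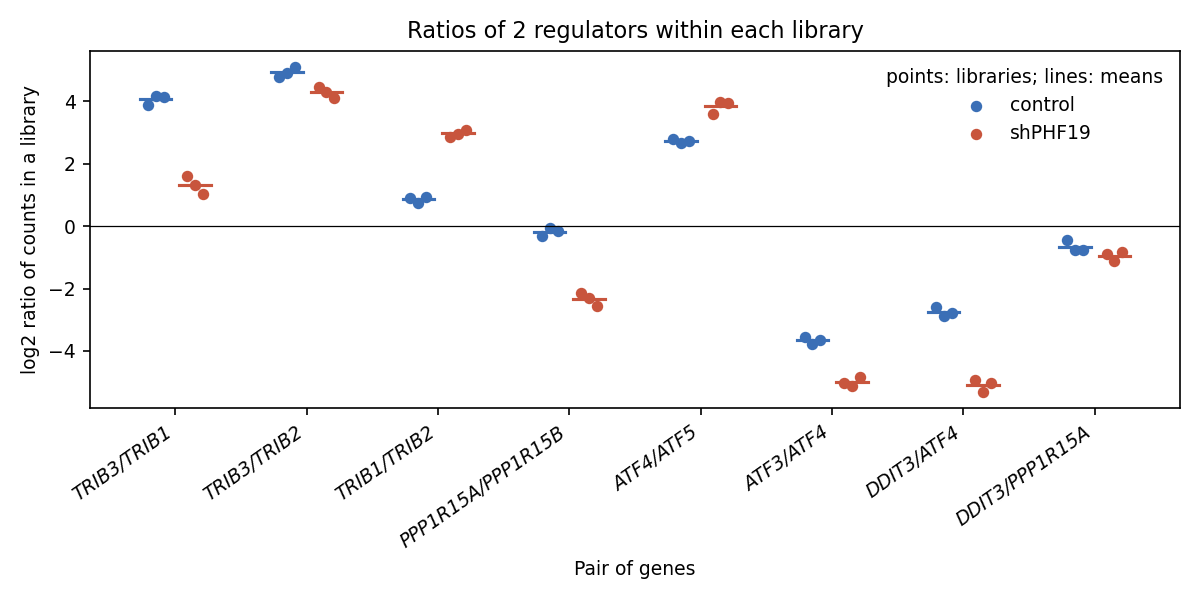
log2 ratio of the counts of 2 regulators in each control (blue) and shPHF19 (red) library, with lines at the group means. The groups do not overlap for any of the 8 pairs, and the TRIB3 to TRIB1 ratio differs most (-2.75). Ratios of other gene pairs were not computed.

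Compared per length (CPM per kilobase of annotated exon), ATF4 had the highest level in both groups, at 292 ± 17.2 in control and 232 ± 7.29 in shPHF19 cells (SD, n = 3). In control cells the order after ATF4 was TRIB3 (161), DDIT3 (83.9), PPP1R15A (56.2), ATF5 (37.6), PPP1R15B (37.6), ATF3 (14.4), TRIB1 (7.99), TRIB2 (3.98) and NUPR1 (1.55). Of these neighbours ATF5 and PPP1R15B overlapped between libraries. In shPHF19 cells PPP1R15B came second at 31.9, ahead of TRIB3 (24.9), ATF5 (13.9), DDIT3 (13.1), PPP1R15A (10.7), TRIB1 (8.30), ATF3 (4.56), TRIB2 (0.946) and NUPR1 (0.0209), with ATF5 and DDIT3 overlapping. By this length TRIB3, DDIT3 and PPP1R15A stood above PPP1R15B in control and under it in shPHF19 cells. TRIB3 did not with other lengths: in shPHF19 cells it was at 34.3 and PPP1R15B at 31.9 by the longest transcript, with overlapping ranges, and at 55.8 and 31.9 by the median transcript. For an even number of transcripts, as for TRIB3, the longer of the middle ones was taken as the median. For PPP1R15A that was its longest, of 2378 bases. The order depends on the gene models. With the median annotated transcript, a choice made after seeing the data, 3 of 10 genes kept their place in each group, ATF4 (384) and TRIB3 (361) overlapped in control libraries, and NUPR1, whose exons span 5674 bases together and 598 in the median transcript, stood at 14.7 in control cells.

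The eIF2 kinases and their regulators, which act upstream, moved both ways. Among the 9 genes 4 rose (44.4%, against 29.4% of all genes), 1 fell (11.1%, against 30.9%) and 4 did not pass. With upper-quartile factors, with library totals alone or without shPHF19 replicate 3, 3 rose. EIF2AK1 (HRI, the kinase that senses haem and mitochondrial stress) was at 154, 160.1 and 161 CPM in control and 280.2, 281 and 284 CPM in shPHF19 libraries (log2 fold change 0.83), with no overlap. EIF2AK4 (GCN2, which senses amino acid lack) rose by 0.45 and its activator GCN1 by 0.72 on the log2 scale. EIF2AK2 (PKR, 0.29; edgeR adjusted p = 0.0212) lost its call under upper-quartile scaling (edgeR adjusted p = 0.140), under library totals alone (edgeR adjusted p = 0.535) and without control replicate 2 (edgeR adjusted p = 0.122) or shPHF19 replicate 3 (edgeR adjusted p = 0.0707). EIF2AK3 (PERK, the kinase of the endoplasmic reticulum), IMPACT, DELE1 and OMA1 did not pass (log2 fold changes 0.16, 0.17, 0.17 and -0.0028), and with library totals alone EIF2AK3, IMPACT and DELE1 turned to -0.04. DELE1 was called higher without control replicate 2 (0.23, edgeR adjusted p = 0.0496). DNAJC3, an inhibitor of the kinases, fell (-0.48).

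Subunits of eIF2 and of its exchange factor eIF2B, the target of the inhibition, moved both ways. Of 8, 4 rose (EIF2B5 0.96, EIF2B3 0.86, EIF2S1 0.56 and EIF2B1 0.36) and 2 fell (EIF2S3 -0.52 and EIF2B4 -0.31). The other 2 did not pass (EIF2S2 -0.05 and EIF2B2 -0.03; log2 fold changes). The shares were 50% rising and 25% falling, against 29.4% and 30.9% of all genes. The fall of EIF2B4 was not called without control replicate 2, shPHF19 replicate 2 or shPHF19 replicate 3 (edgeR adjusted p = 0.184, 0.0551 and 0.150), which leaves 1 fall. EIF2B1 lost its call with library totals alone (edgeR adjusted p = 0.145), and EIF2S2 was called lower there (edgeR adjusted p = 0.0107). All 3 catalytic subunits of PP1, the partner of PPP1R15A and PPP1R15B, passed, as did 60.2% of all genes. PPP1CA (0.53) and PPP1CC (0.48) rose and PPP1CB fell (-0.57).

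The genes encoding proteins that the Tribbles pseudokinases bind were tested alongside the Tribbles genes. Of 8, 4 rose (AKT1 1.07, ACACA 0.94, AKT2 0.45 and MAP2K1 0.29), 1 fell (SQSTM1, -0.93) and 3 did not pass. The shares were 50% rising and 12.5% falling, against 29.4% and 30.9% of all genes. MAP2K1 lost its call with upper-quartile factors (edgeR adjusted p = 0.0633) and with library totals alone (edgeR adjusted p = 0.397). COP1, the ligase through which TRIB1 and TRIB2 act, was at 51.7 ± 1.64 and 52.7 ± 4.57 CPM (SD, n = 3; log2 fold change 0.03, and -0.07 and -0.18 with upper-quartile factors and library totals alone). MAP2K4 and MAP2K7 had log2 fold changes of -0.08 and 0.14. CEBPA, the gene of the C/EBP protein these paralogs target, did not pass at 52.9 ± 4.85 and 47.1 ± 3.07 CPM (SD, n = 3; log2 fold change -0.17), and was called lower with upper-quartile factors (-0.27, edgeR adjusted p = 0.0216) and with library totals alone (-0.37, edgeR adjusted p = 0.00200).

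Among partners and relatives of these leucine zipper factors more fell than rose. Of 29 listed 28 were tested. Of these, 14 fell (50%, against 30.9% of all genes), 5 rose (17.9%, against 29.4%) and 9 did not pass. The median log2 fold change was -0.21. Across the alternatives 11 to 18 fell and 1 to 5 rose. CEBPB, which pairs with ATF4 and CHOP, was at 74.4, 73.7 and 68.1 CPM in control and 18.5, 16.1 and 15.5 CPM in shPHF19 libraries (log2 fold change -2.11). CEBPG, the partner that ATF4 uses at amino acid response genes, fell from 183 ± 17.7 to 59.5 ± 5.17 CPM (SD, n = 3; -1.62). The other clearest falls were JUN (-1.36), NFE2L1 (-0.96), JDP2 (-0.95) and FOS (-2.00). The 5 that rose were FOSL1 (1.18), BATF (0.52), CREB3 (0.45), MAFK (0.32) and ATF6B (0.32), and of these only FOSL1 kept its call with library totals alone, where 18 genes fell. MAFK also lost it with upper-quartile factors (edgeR adjusted p = 0.146), in the replicate block fit (edgeR adjusted p = 0.0524) and without control replicate 1 or 2 or shPHF19 replicate 1 or 2 (edgeR adjusted p = 0.146, 0.0608, 0.179 and 0.0633). ATF6, named after its values were seen, fell from 106 ± 5.70 to 74.9 ± 3.69 CPM (SD, n = 3; log2 fold change -0.51).

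Genes reported as targets of ATF4 or CHOP fell in most cases. Of 60 listed 55 were tested. Of these, 42 fell (76.4%, against 30.9% of all genes), 3 rose (5.45%, against 29.4%) and 10 did not pass. The median log2 fold change was -0.68. Over the alternatives 39 to 47 fell and 2 to 4 rose. This list, like the members, was chosen with earlier results of these data known. The list shares CEBPB, CEBPG, JDP2 and SQSTM1 with those above. DDIT4, an inhibitor of mTORC1, was at 341, 376 and 341 CPM in control and 16.7, 16.8 and 16.6 CPM in shPHF19 libraries (log2 fold change -4.40), further down than DDIT3 or TRIB3. SLC7A11, which imports cystine, fell from 62.4 ± 9.26 to 9.38 ± 0.461 CPM (SD, n = 3; -2.73). WARS1 (tryptophanyl-tRNA synthetase, -1.86), TNFRSF10B (death receptor 5, -1.73) and MAP1LC3B (an autophagy protein, -1.56) fell too.

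The 3 targets that rose were ERO1A, an oxidase of the endoplasmic reticulum known as a CHOP target (93.9 ± 2.75 to 181 ± 12.2 CPM; log2 fold change 0.95), ALDH18A1 of proline synthesis (98.7 ± 10.6 to 187 ± 8.21 CPM; 0.92) and SHMT2 of mitochondrial serine breakdown (385 ± 22.4 to 472 ± 44.7 CPM; 0.29; SD, n = 3 throughout). SHMT2 lost its call with library totals alone (edgeR adjusted p = 0.343). CHAC1, a glutathione-degrading enzyme widely used as a readout of ATF4, is named here after its values were seen. It was low in both groups, at 0.921, 1.24 and 1.75 CPM in control and 1.56, 1.29 and 0.826 CPM in shPHF19 libraries, and did not pass.

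ATF6 and XBP1 run the other arms of the unfolded protein response. Of 22 genes reported as their targets 14 rose (63.6%, against 29.4% of all genes). Another 6 fell (27.3%, against 30.9%) and 2 did not pass, with a median log2 fold change of 0.42. Over the alternatives 11 to 15 rose and 5 to 7 fell, with 11 rising and 7 falling with library totals alone. The clearest rises were those of chaperones and disulfide isomerases: PDIA4 (106, 124 and 109 CPM in control and 408, 403 and 397 CPM in shPHF19 libraries; 1.83), PDIA6 (1.17), PDIA3 (1.08), HSP90B1 (0.93), CALR (0.85) and SDF2L1 (1.54). HSPA5, the chaperone that holds PERK inactive, is named after its values were seen and rose by 0.32 (edgeR adjusted p = 0.000489), a call lost with library totals alone (edgeR adjusted p = 0.180). The 6 that fell were HERPUD1 (-1.68, also on the ATF4 and CHOP list), SEL1L (-1.16), DNAJB9 (-0.68), DNAJC3 (-0.48), CANX (-0.34) and XBP1 (-0.20). XBP1 lost its call with RLE factors (edgeR adjusted p = 0.0527), with no filter (edgeR adjusted p = 0.0849), in the replicate block fit (edgeR adjusted p = 0.101) and without control replicate 2 or shPHF19 replicate 2 or 3 (edgeR adjusted p = 0.155, 0.0855 and 0.0862).

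**Figure D4:**
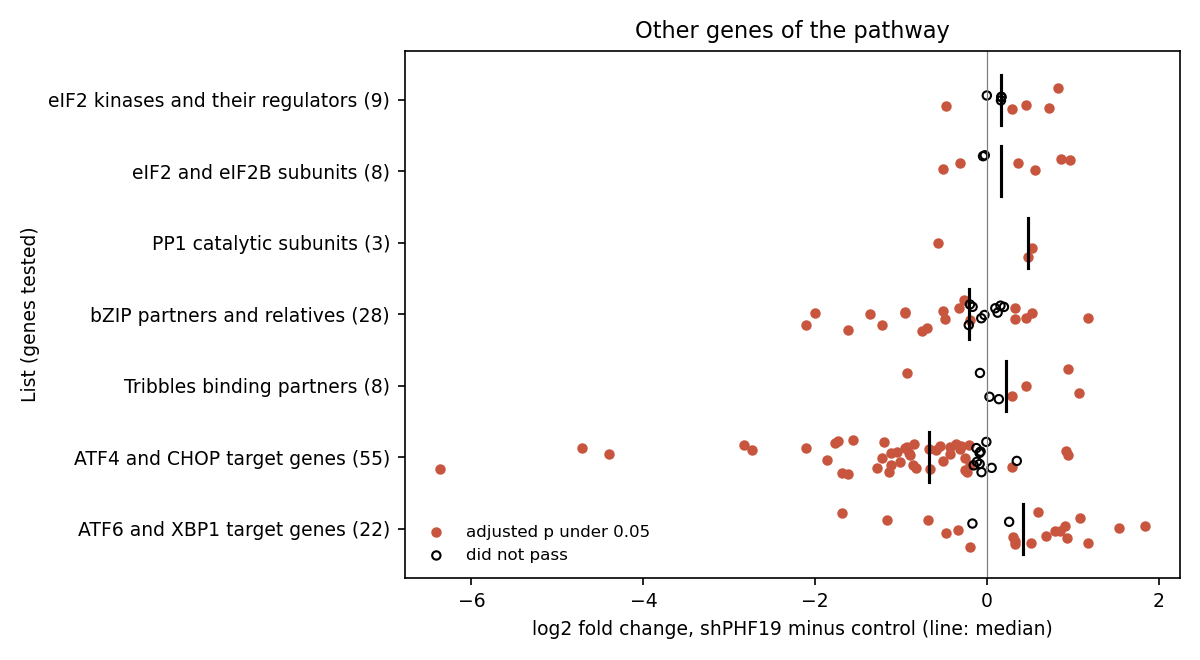
log2 fold change (shPHF19 minus control) of each tested gene in 7 lists of other genes in the pathway, filled red where the adjusted p was under 0.05 and open where it was not, with a line at each list's median. The ATF4 and CHOP targets have a median of -0.68 and the ATF6 and XBP1 targets one of 0.42.

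Over the 6 libraries, the non-member genes of at least 5 CPM whose log2 CPM followed ATF4 most closely were ALKBH3 (Pearson r = 0.997), APBB1IP (0.994) and RWDD2B (0.993), out of 10317 compared. For DDIT3 they were CCPG1, FCGR1C and CYB561 (each 0.999), and 223 genes passed r = 0.99. The points share the difference between the 2 groups, so these r describe the profiles only, and FCGR1C shares reads with near-identical copies.

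The authors' deposited table of their own comparison, which holds 5740 genes, lists 7 of the members. In the authors' deposited table the log2 fold changes are -6.08 for NUPR1, -2.67 for TRIB3, -2.65 for DDIT3, -2.37 for PPP1R15A, -2.01 for TRIB2, -1.63 for ATF3 and -1.41 for ATF5. ATF4, TRIB1 and PPP1R15B have no row in the authors' deposited table. Its smallest absolute log2 fold change is 0.322 and its largest adjusted p is 0.00993 (authors' own test, tool not given). These members' DESeq2 log2 fold changes from the counts were -0.315 for ATF4 (DESeq2 adjusted p = 6.09e-05), 0.07 for TRIB1 (DESeq2 adjusted p = 0.622) and -0.22 for PPP1R15B (DESeq2 adjusted p = 0.0209).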

How the data were processed

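Total RNA of 6 Kasumi-1 libraries was sequenced. The authors deposited whole-number counts per gene symbol, made with HISAT2 2.1.0, HTSeq 0.11.2 and hg38 per the submitters' processing notes. The sources used here do not give the annotation, the strand setting or the order of the steps. The authors also deposited their own comparison, with a mean normalized signal (baseMean), log2 fold changes and p-values, by a tool not given in those sources. Groups came from sample titles.

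Counts were tested with edgeR 4.0.16 (R 4.3.3): filterByExpr, TMM, group as the only term, robust quasi-likelihood F test, and Benjamini-Hochberg adjustment over 13014 genes at 0.05. The SE is the log2 fold change over the square root of F. CPM were computed here. Alternatives were DESeq2 1.42.0, limma-voom (limma 3.58.1), RLE, upper-quartile and total scaling, 2 other filters, a replicate block and leaving out each library. Replicate pairs differed beyond sampling noise (chi-square per degree of freedom 4.79 to 12.4). Rows named as dates (28) were kept and not named. Positions and lengths came from GENCODE 29 (GRCh38), and list symbols were matched to older names by gene ID or synonym.

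The members and lists were chosen with earlier results of these data known. The Tribbles partner list as first drawn up held 1 more gene, which is not reported here. Named are all members, PHF19, every gene of lists of up to 9, up to 6 genes per direction of longer lists by adjusted p, and the 3 closest profiles to ATF4 and DDIT3.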

Additional observations from a re-analysis of the deposited data

How the results depend on the processing

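Of the 10 members, 8 or 9 were called lower and none higher under each of the 14 alternatives, and all but TRIB1 kept their direction. TRIB1 was reversed with upper-quartile factors (-0.0466) and with library totals only (-0.149). With library totals only, 1 leucine zipper relative rose in place of 5. Leaving out 1 library at a time, 1 to 2 eIF2 and eIF2B subunits fell. The 8 pair ratios kept their direction with 1 or 2 counts added and without each library. The longest transcript kept 8 of 10 members in their place in shPHF19 cells and 10 in control cells. Correlations of deviations from group means were -0.23, -0.01 and -0.06 for same-numbered libraries and -0.18 to 0.23 for differently numbered ones. With 3 libraries in each group, these cannot tell whether the numbers pair them. With the replicate block 7307 genes passed in place of 7835, and 8 members were called lower. Depth limits NUPR1 in shPHF19 libraries (1 to 3 counts each).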
